A study of Mus musculus with 6 samples.

Results

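Imprinted genes are the subject here: 36 mouse genes, listed by name from well-known imprinted clusters, followed in J110 and SSM3 mammary tumour cells. Of the 36 names, 35 matched a gene in the table of 52636 genes, and the antisense transcript Dcn-as was not matched. The genes were chosen by name with the counts of these same libraries in view, among them the absence of Rasgrf1 counts in J110. Differences between the lines among these genes are therefore given as a description, without p-values.

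Gene expression was measured by QuantSeq 3′ mRNA sequencing, which reads the stretch next to the poly(A) tail, in 3 libraries of each line. J110 was derived from mice that carry the AIB1 (Ncoa3) cDNA under the mouse mammary tumour virus long terminal repeat, a promoter active in mammary epithelium. SSM3 was established from mammary tumours that arose in mice of the 129SvEv strain. The labels name no treatment of either line. Both were grown with insulin and hydrocortisone, and the SSM3 medium differed in serum, holo-transferrin, β-mercaptoethanol and CO2. Each group is thus a single line, so line, mouse strain, oncogenic lesion and medium cannot be told apart. The study's methods call the 3 libraries of a line biological replicates, without saying whether they were separate cultures, so p-values measure only the spread between these samples.

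Imprinted genes are expressed mainly from the chromosome inherited from one parent. A methylation mark laid down in the egg or the sperm differs between the parental copies of a control region, and that region sets which genes of the cluster are read, often through a long noncoding RNA that silences its neighbours in cis. Many of these genes act on fetal and placental growth, and several, such as Igf2, H19 and Plagl1, fall in most tissues after birth. The counts do not tell the maternal from the paternal copy, so every value is a total over both alleles. In bulk RNA, fewer cells expressing a gene and less RNA per cell cannot be told apart either.

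The libraries held 4200785 to 5416305 counts, and 12284 genes passed the filter on low counts. Epithelial markers summed to 2677 to 2766 CPM (counts scaled to library size in the usual way) in J110 and 11878 to 13073 in SSM3, with all 5 markers above 3 counts in some library. In J110 the epithelial sum came mostly from Krt8 and Krt18, whereas Epcam had only 2, 1 and 7 counts. Of the 5 mesenchymal markers 2 passed 3 counts in some library, and their sum was 4960 to 5455 CPM in J110, nearly all of it Vim, and 2.79 to 18.5 in SSM3. Col1a2 and Lum had no count. None of 4 leukocyte markers passed 3 counts, and the 3 endothelial markers summed to at most 2.18 CPM. The labels were not checked by a targeted gene. Ncoa3 was not higher in the libraries labelled J110 (110, 106 and 102 counts, against 181, 199 and 186 in SSM3), and 3′ reads need not cover a cDNA transgene. Some libraries also held low counts on genes that were high in the other line only. J110 replicate 3 reached 0.281% of the SSM3 level over such genes, against 0.0474 and 0.0535% in the other J110 libraries, and SSM3 replicate 2 reached 0.360% of the J110 level.

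Promoters of 4 genes are shown first, because the counts of their genes differed strongly between the lines and RefSeq gives each a single start: Rasgrf1, Plagl1 and Mcts2, higher in SSM3, and Airn, found in J110. They were picked after the counts were seen, as examples only: Phlda2 meets the same description and is not shown. Each stretch holds the 250 bases before the start, read on the plus strand of GRCm38.p6 from RefSeq. Capitals mark TGCCGC or its reverse complement GCGGCA, the core letters bound by ZFP57, a zinc finger protein that keeps methylation at imprints.
Rasgrf1 (chr9:89909525-89909774): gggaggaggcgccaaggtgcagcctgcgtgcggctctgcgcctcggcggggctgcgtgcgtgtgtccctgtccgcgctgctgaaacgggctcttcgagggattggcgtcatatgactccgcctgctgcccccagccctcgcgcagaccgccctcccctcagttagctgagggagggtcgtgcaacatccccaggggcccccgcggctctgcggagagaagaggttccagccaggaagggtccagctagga
Plagl1 (chr10:13090582-13090831): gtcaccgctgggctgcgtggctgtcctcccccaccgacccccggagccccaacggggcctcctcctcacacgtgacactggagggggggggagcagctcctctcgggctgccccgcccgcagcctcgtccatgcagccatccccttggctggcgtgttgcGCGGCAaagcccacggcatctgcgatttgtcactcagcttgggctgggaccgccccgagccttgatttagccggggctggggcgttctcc
Mcts2 (chr2:152686898-152687147): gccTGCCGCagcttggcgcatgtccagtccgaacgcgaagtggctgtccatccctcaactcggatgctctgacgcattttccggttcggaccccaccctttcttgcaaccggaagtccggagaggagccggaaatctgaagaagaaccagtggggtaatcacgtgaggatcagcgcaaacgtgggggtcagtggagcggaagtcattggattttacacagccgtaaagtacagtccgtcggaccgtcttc
Airn (chr17:12741061-12741310): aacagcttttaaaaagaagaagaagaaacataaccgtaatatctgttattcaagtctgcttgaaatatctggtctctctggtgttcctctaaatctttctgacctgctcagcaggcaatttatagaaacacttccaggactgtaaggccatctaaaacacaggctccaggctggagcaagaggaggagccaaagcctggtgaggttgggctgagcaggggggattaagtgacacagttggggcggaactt
Over the windows of 300 bases that also take in the 50 bases after the start, Rasgrf1 and Plagl1 each held 26 CG dinucleotides, Mcts2 held 25 and Airn held 3. The median window of all genes held 7, with quartiles of 3 and 20. The ZFP57 letters were searched on both strands and stood in 11 of the 40 windows of listed genes (27.5%) and in 11.6% of all 32851 windows. Among listed genes, the share was 28.6% for those counted in both lines and 28.6% for those counted in neither. A match is a string of letters and no sign of binding, and the windows do not cover imprint control regions that lie away from a start.

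A library count of 3 or fewer was treated as a floor, since about 3 is the upper 95% limit (1-sided, Poisson) on the mean behind a count of 0. The floor stood for 0.578 to 0.668 CPM, and it covers counting error only. By this measure, 9 of the 35 matched genes were above the floor in every library of both lines and 17 were at or under it in all 6 libraries. Another 5 were above it in every SSM3 library and at the floor in J110: H19, Igf2, Plagl1, Snrpn and Rasgrf1. Airn alone showed the reverse. Phlda2, Kcnq1 and Impact were above the floor in every J110 library and passed it in only some SSM3 libraries. Thus 18 of the 35 passed 3 counts in some library, beside 15752 of the 52636 genes in the table. By the allele read where a gene is imprinted, 15 of the 35 genes are maternal and 20 paternal. Ube3a is listed as maternal, although most cells other than neurons read both copies. The split is a listing only, since the allele read in these lines was not tested. The 5 genes counted in SSM3 only were 1 maternal and 4 paternal, and the 9 counted in both lines were 5 maternal and 4 paternal.

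**Figure D1:**
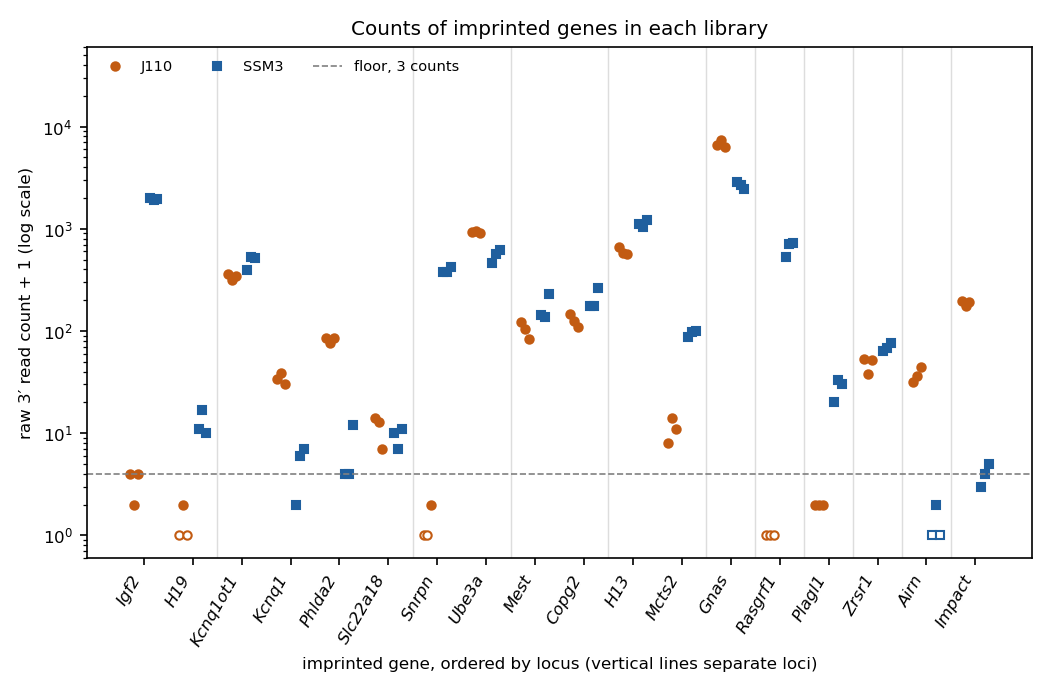
Raw 3′ read counts plus 1 (log axis) of the 18 imprinted genes that passed 3 counts in any library, 1 point per library, with vertical lines between loci, open points for a count of 0 and a dashed line at the floor of 3 counts. Rasgrf1 has no J110 count against 532 to 720 in SSM3, and Airn has 31 to 43 counts in J110 against at most 1 in SSM3, whereas the points of Slc22a18 overlap.

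The filter on low counts left 17 of the 35 genes for the comparison. At an adjusted p below 0.05, 16 of them were called, 10 higher and 6 lower in SSM3. The same threshold called 77.9% of all genes tested (38.6% higher, 39.2% lower), and nothing is read from the members' count. The libraries of the lines did not overlap for 16 of the 17, against 79.6% of all genes tested. The median log2 fold change of the 17 was 0.63, where positive values mean higher in SSM3, beside -0.01 over all genes. The median absolute log2 fold change was 2.94, beside 0.84 over all genes. A change of at least 4-fold was seen in 9 of the 17, 5 of them upwards and 4 downwards, and in 21.7% of all genes tested. Rasgrf1 was listed with its lack of J110 counts in view. Like Igf2, Snrpn and Airn, it passed the filter only through the line with higher counts. Nothing is therefore read from these medians or from this share. Genes at the floor in one line and above it in all libraries of the other made up 4.04% of tested genes towards SSM3 and 5.27% towards J110. Among the 17, these were Igf2, Plagl1, Snrpn and Rasgrf1 towards SSM3 and Airn towards J110. H19, counted above among the 35, was not tested.

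At the Igf2-H19 locus on chromosome 7, both genes were counted in SSM3 and neither passed the floor in J110. Igf2 (ENSMUSG00000048583, chr7:142650766-142666816, minus strand) encodes insulin-like growth factor 2, a fetal growth factor read from the paternal copy. It had 3, 1 and 3 counts in J110 and 2002, 1921 and 1956 in SSM3. The SSM3 libraries lay within a narrow range, at 414 ± 28.8 CPM (SD, n = 3), far above the 0.467 ± 0.235 CPM of J110. The ratio of summed counts was 888-fold (exact 95% interval 431 to 2209, counting error only). H19 (ENSMUSG00000000031, chr7:142575529-142578143, minus strand), the maternally read noncoding RNA that shares enhancers with Igf2, had 0, 1 and 0 counts in J110 and 10, 16 and 9 in SSM3. The groups did not overlap and the ratio was 37.0-fold (6.22 to 1502), but H19 was too low for the filter. The antisense Igf2os, which shares 98 exon bases with Igf2, had no J110 count and 15, 24 and 29 in SSM3. Reads from the opposite strand cannot be told apart where exons overlap, because the strand setting of the counting was not given in the sources used here. For each locus, the nearest tested protein-coding genes on either side are given as flanking genes, leaving out genes that are themselves on the lists of imprinted genes. For Igf2-H19 these were Tnni2 (log2 fold change 0.32, SE 0.25, edgeR adjusted p = 0.243) and Trpm5 (-0.18, SE 0.36, adjusted p = 0.644), and neither passed the test. The imprinted Cd81, which lies nearer to Igf2 than Trpm5 does, was lower in SSM3 (-1.59, SE 0.07, adjusted p = 3.51e-12).

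In the neighbouring Kcnq1 domain, the maternally read Phlda2 and Kcnq1 had lower counts in SSM3. Phlda2 (chr7:143501545-143503150, minus strand), a pleckstrin homology protein that restrains placental growth, had 85, 75 and 84 counts in J110 and 3, 3 and 11 in SSM3. SSM3 replicate 3 was the only SSM3 library above the floor, and the log2 fold change moved from -3.74 (SE 0.32) to -4.58 without it. Kcnq1 (chr7:143106362-143427042, plus strand), a voltage-gated potassium channel subunit, had 33, 38 and 29 counts in J110 and 1, 5 and 6 in SSM3, a log2 fold change of -2.94 (SE 0.38). Every J110 library stood above every SSM3 library for both genes. Slc22a18, a transporter of the organic cation family, had 13, 12 and 6 counts in J110 and 9, 6 and 10 in SSM3. Its groups overlapped, and its log2 fold change was -0.23 (SE 0.39). Cdkn1c, a cyclin-dependent kinase inhibitor, had at most 2 counts in any library, and Ascl2, a helix-loop-helix factor of trophoblast, at most 1.

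Kcnq1ot1 (chr7:143203458-143296549, minus strand) is the paternally read antisense RNA that starts inside Kcnq1 and silences the domain in cis. It was counted in all libraries, at 357, 313 and 343 in J110 and 393, 526 and 520 in SSM3. The groups did not overlap, at 67.4 ± 4.98 and 101 ± 12.3 CPM (SD, n = 3), and the log2 fold change was 0.58 (SE 0.10). Of its exons, 121 bases are shared with Kcnq1. The Kcnq1 count was 8.45 to 12.1% of the Kcnq1ot1 count in J110 and 0.254 to 1.15% in SSM3. The flanking gene Nap1l4, 10429 bases beyond Phlda2, was higher in SSM3 (log2 fold change 0.53, SE 0.07, edgeR adjusted p = 5.15e-06).

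The Snrpn-Ube3a locus, the mouse counterpart of the Prader-Willi and Angelman region, held a paternally read gene that was nearly restricted to SSM3. Snrpn (ENSMUSG00000102252, chr7:59982495-60140219, minus strand) encodes a core protein of the spliceosome. It had 0, 0 and 1 counts in J110 and 374, 374 and 417 in SSM3. SSM3 libraries were close together at 81.9 ± 2.15 CPM (SD, n = 3), and the ratio of summed counts was 1231-fold (exact 95% interval 221 to 48676). The single J110 count was in replicate 3, the J110 library with most low counts on genes of SSM3; what part that had in it was not tested. Without that library J110 had no Snrpn count at all. Snurf, on the same transcripts with 216 shared exon bases, had 1 count in SSM3, in replicate 2.

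The paternally read genes Ndn and Magel2, both of the MAGE family, had no count in any library. From the further list of imprinted genes, Peg12 had no J110 count and 23, 20 and 25 in SSM3 (at least 7.64-fold higher against the floor of 3 counts per library, edgeR adjusted p = 3.09e-07), and Mkrn3, a ring finger protein named after its values were seen, had no J110 count and 10, 4 and 11 in SSM3. Ube3a (chr7:59228750-59311536, plus strand), a ubiquitin ligase that is maternally read in neurons and from both copies in most other cells, was counted throughout. It had 937, 952 and 917 counts in J110 and 460, 561 and 618 in SSM3, so that every J110 library was above every SSM3 library, with a log2 fold change of -0.70 (SE 0.08). Snhg14, the long host RNA read from the paternal copy against Ube3a, shares 1803 exon bases with it and moved the other way. It had 13, 22 and 35 counts in J110 and 97, 131 and 145 in SSM3 (log2 fold change 2.48, SE 0.25, edgeR adjusted p = 1.26e-07). Gm44560 and 9330162G02Rik, also on the opposite strand, share 2025 and 1796 exon bases with Ube3a and were named after their values were seen. Both had lower counts in SSM3, as Ube3a did. Gm44560 had 50, 57 and 40 counts in J110 and 19, 17 and 11 in SSM3. The other had 47, 38 and 35 against 12, 10 and 9. Atp10a, a phospholipid flippase from the further list that lies between Ube3a and Herc2 and was named after its values were seen, was lower in SSM3, at 132, 103 and 72 counts in J110 and 8, 11 and 7 in SSM3 (-3.46, SE 0.28, adjusted p = 9.71e-09). Of the flanking genes not listed as imprinted, Herc2 did not pass the test (log2 fold change -0.06, SE 0.09, adjusted p = 0.573), and Otud7a was higher in SSM3 (0, 2 and 0 counts against 10, 16 and 15, adjusted p = 2.34e-05). They lie 2996950 and 1063111 bases from the listed genes.

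Rasgrf1 (ENSMUSG00000032356, chr9:89909908-90026977, plus strand) encodes a guanine nucleotide exchange factor that loads Ras and Rac with GTP and is best known from brain. It is paternally read in the newborn mouse. No J110 library had a count, and the SSM3 libraries had 532, 716 and 720, or 138 ± 17.4 CPM (SD, n = 3). Against the floor of 3 counts per library, Rasgrf1 was at least 220-fold higher in SSM3. Its promoter, printed above, is rich in CG dinucleotides and holds no ZFP57 letters. The flanking tested genes moved in opposite directions. Tmed3, a cargo receptor of the early secretory pathway 204840 bases away, was higher in SSM3 (log2 fold change 3.09, SE 0.10, edgeR adjusted p = 6.93e-14), and Ctsh, the lysosomal protease cathepsin H 27175 bases away, was lower (-2.73, SE 0.08, adjusted p = 1.28e-14).

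Other genes of the Ras exchange step were taken as a list of 11, of which 8 were tested. All 8 passed edgeR's test at this background, 3 higher and 5 lower in SSM3, with a median log2 fold change of -0.33. Among exchange factors, Rasgrp4 was higher in SSM3 (56, 61 and 41 counts in J110, 206, 166 and 290 in SSM3, log2 fold change 2.14, SE 0.19, adjusted p = 2.16e-08). Rasgrp3 was lower (70, 50 and 39 counts against 3 in each SSM3 library, a ratio of 16.7-fold with an exact 95% interval of 8.59 to 37.2, adjusted p = 3.91e-08). Sos1 and Sos2, the widely expressed factors that couple receptor kinases to Ras, were lower at -1.51 (SE 0.17, adjusted p = 4.88e-07) and -0.73 (SE 0.13, adjusted p = 8.36e-05). Rasgrf2, the closest paralogue of Rasgrf1, had 2, 0 and 0 counts in J110 and none in SSM3. Among the GTPases, Hras (1.58, SE 0.09, adjusted p = 1.54e-10) and Rac1 (0.53, SE 0.07, adjusted p = 2.24e-06) were higher in SSM3 and Nras was lower (-0.48, SE 0.08, adjusted p = 3.78e-05).

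Plagl1 (ENSMUSG00000019817, chr10:13060504-13131694, plus strand), a paternally read zinc finger transcription factor that restrains proliferation, had 1 count in each J110 library and 19, 32 and 29 in SSM3. The groups were well apart, SSM3 at 5.60 ± 1.29 CPM (SD, n = 3), with a ratio of 28.2-fold (exact 95% interval 9.30 to 140). Its flanking genes Sf3b5 (log2 fold change -0.75, SE 0.19, edgeR adjusted p = 0.00162) and Ltv1 (-0.98, SE 0.13, adjusted p = 4.38e-06) were lower in SSM3, the opposite direction to Plagl1.

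Airn and Impact were the paternally read genes with higher counts in J110. Airn (ENSMUSG00000078247, chr17:12741311-12860136, plus strand) is the long noncoding RNA that starts inside Igf2r and silences it in cis. It had 31, 35 and 43 counts in J110 and 0, 1 and 0 in SSM3. The groups were far apart, with a ratio of summed counts of 103-fold (exact 95% interval 18.1 to 4110). The only SSM3 count was in replicate 2, the SSM3 library with most low counts on J110 genes. Igf2r, the receptor that clears IGF2 and sorts lysosomal enzymes, was named here after its values were seen. It is read on the opposite strand and shares no exon bases with Airn. Igf2r was also higher in J110, at 162, 162 and 144 counts against 84, 76 and 35 (log2 fold change -1.17, SE 0.23, edgeR adjusted p = 0.00017), so both transcripts of the pair were higher in the same line. Outside the locus, Map3k4 was at 0.64 (SE 0.14, adjusted p = 0.000537) and Mrpl18 at -0.40 (SE 0.07, adjusted p = 0.000108).

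Impact (ENSMUSG00000024423, chromosome 18), which inhibits the amino acid sensor kinase GCN2, had 196, 176 and 192 counts in J110 and 2, 3 and 4 in SSM3. Only SSM3 replicate 3 passed the floor, and the ratio was 59.3-fold (exact 95% interval 31.0 to 130). Its neighbour Osbpl1a, 14011 bases away, was lower in SSM3 as well (log2 fold change -1.92, SE 0.17, edgeR adjusted p = 2.37e-08), while Ss18, 1631248 bases away, was at 0.41 (SE 0.08, adjusted p = 0.000361).

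**Figure D2:**
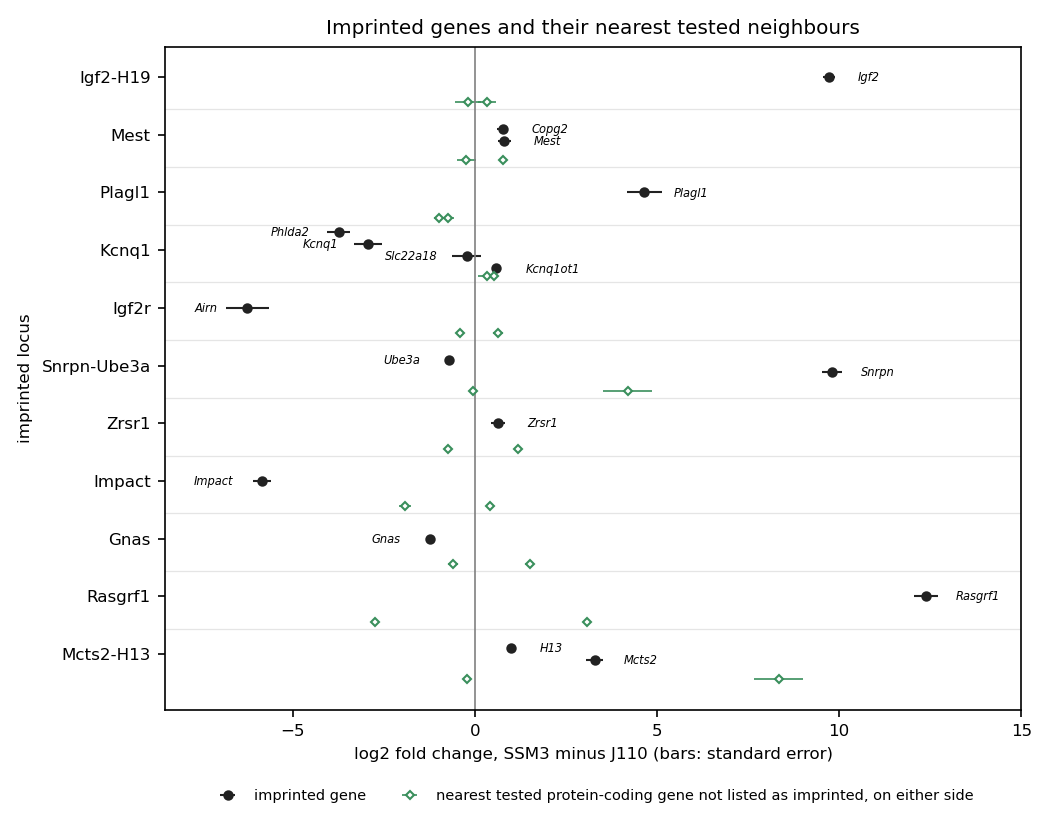
Log2 fold change (SSM3 minus J110, bars are standard errors) of the 17 tested imprinted genes, black, and of the nearest tested protein-coding gene not listed as imprinted on either side of each locus, green diamonds. Rasgrf1, Snrpn and Igf2 lie above 9 and Airn and Impact below -5. For genes at the floor in a line, the size of the fitted value rests on few or no counts in that line and is uncertain. The neighbours of Igf2-H19 lie near 0, at 0.32 and -0.18.

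The 2 retrogenes on the list, which sit inside host genes, were counted in both lines. Mcts2 (ENSMUSG00000042814, chr2:152687035-152687946, plus strand) is a copy of the translation factor gene Mcts1 and lies within H13, outside its exons. It had 7, 13 and 10 counts in J110 and 87, 96 and 98 in SSM3. All J110 libraries were below the SSM3 libraries, which lay close together at 19.8 ± 0.552 CPM (SD, n = 3), with a log2 fold change of 3.29 (SE 0.24). The host H13 (chr2:152669461-152708670, plus strand), the signal peptide peptidase, had 655, 584 and 564 counts in J110 and 1107, 1041 and 1216 in SSM3, a log2 fold change of 0.98 (SE 0.08). The difference between host and retrogene was not tested. Of the flanking genes, Defb45, a beta-defensin, had no J110 count and 34, 36 and 48 in SSM3 (at least 13.2-fold higher against the same floor, edgeR adjusted p = 2.95e-08). Id1, a helix-loop-helix inhibitor, was at -0.21 (log2 fold change, SE 0.08, adjusted p = 0.021). It lost its call with scaling to library size only (-0.04, adjusted p = 0.675), without J110 replicate 2 (-0.18, adjusted p = 0.0818) and without SSM3 replicate 2 (-0.16, adjusted p = 0.111), among other settings.

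Zrsr1 (chr11:22972005-22976496, plus strand), a splicing factor retrogene inside Commd1, had 52, 37 and 51 counts in J110 and 62, 67 and 76 in SSM3. Its groups did not overlap, though they were close, and the log2 fold change was 0.63 (SE 0.19). Commd1, a regulator of copper handling and NF-kappaB on the opposite strand, shares 412 exon bases with it and was lower in SSM3. Its counts were 333, 330 and 254 in J110 and 158, 124 and 56 in SSM3 (log2 fold change -1.34, SE 0.23, edgeR adjusted p = 6.35e-05), with SSM3 replicate 3 the lowest. The flanking B3gnt2 (1.18, SE 0.09, adjusted p = 3.58e-09) and Cct4 (-0.75, SE 0.07, adjusted p = 2.02e-08) moved in opposite directions.

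Mest and Copg2 on chromosome 6 moved together, and their counts may be partly the same reads. Mest (chr6:30723547-30748465, plus strand), a hydrolase-fold protein read from the paternal copy, and Copg2 (chr6:30747554-30896794, minus strand), a coatomer subunit, meet tail to tail and share 912 exon bases at their 3′ ends, the stretch that QuantSeq reads. Mest had 120, 103 and 83 counts in J110 and 142, 136 and 231 in SSM3, and Copg2 had 144, 125 and 108 against 173, 174 and 261. SSM3 replicate 3 was the highest library for both genes. The log2 fold changes were 0.81 (SE 0.17) and 0.76 (SE 0.14), and the Mest count was 76.9 to 88.5% of the Copg2 count in every library. Both are therefore uncertain as separate genes. Mkln1, beyond Copg2, was also higher in SSM3 (0.76, SE 0.08, edgeR adjusted p = 3.82e-07), and Cep41 on the other side did not pass the test (-0.23, SE 0.26, adjusted p = 0.415).

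Gnas (ENSMUSG00000027523, chr2:174284320-174346744, plus strand) encodes the alpha subunit of the stimulatory G protein, which links hormone receptors to cyclic AMP. It had 6545, 7397 and 6257 counts in J110 and 2857, 2698 and 2474 in SSM3. All J110 libraries were above all SSM3 libraries, at 1343 ± 106 and 567 ± 72.1 CPM (SD, n = 3), a log2 fold change of -1.24 (SE 0.09). The locus also makes Nesp and XLαs transcripts with other first exons and the same 3′ end, so 3′ reads give their sum. The annotated gene Gm20721, on the opposite strand, shares 1469 exon bases with Gnas and had 98.1 to 99.1% of its count in every library. As with Mest and Copg2, these counts may be largely the same reads. The antisense Nespas had no count. Nelfcd, 69060 bases away, was higher in SSM3 (log2 fold change 1.51, SE 0.13, edgeR adjusted p = 1.80e-08) and Npepl1 was lower (-0.60, SE 0.15, adjusted p = 0.00137).

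**Figure D3:**
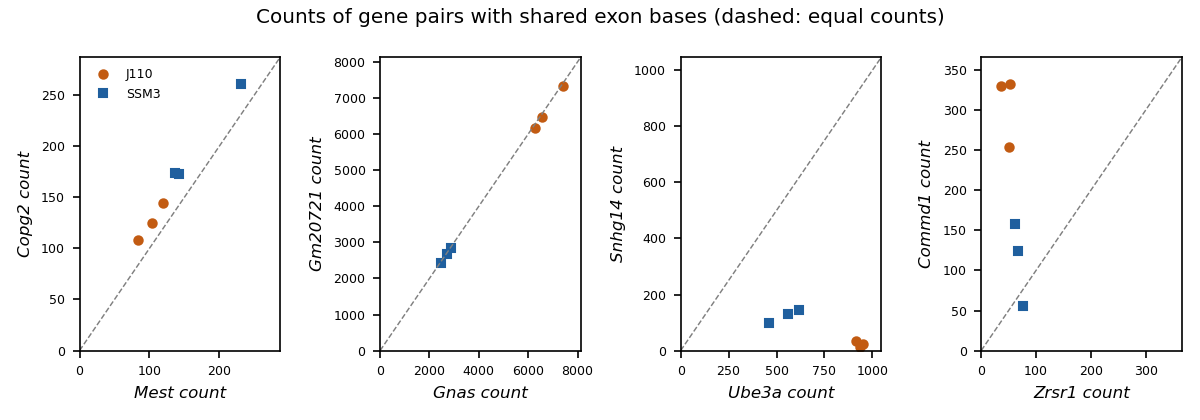
Raw counts in each library of 4 imprinted genes (x axes) against a gene that shares exon bases with each (y axes), with a dashed line of equal counts. Copg2 follows Mest and Gm20721 follows Gnas across all libraries of both lines, whereas Snhg14 is higher in SSM3 where Ube3a is lower, and Commd1 is lower where Zrsr1 is higher.

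At 5 loci every listed gene was at the floor in both lines. At Dlk1-Meg3 on chromosome 12, the Notch-like ligand gene Dlk1 had 1 count in all, the noncoding RNA Rian had 1, and Meg3, Mirg and the retrotransposon-derived Rtl1 had none. At the Peg3 locus, the zinc finger genes Peg3 and Zim1 had 2 and 0 counts and the peptidase family gene Usp29 had 1. Grb10, an adaptor that restrains insulin and IGF receptors, had at most 1 count in any library. So did Sgce, a sarcoglycan, and its retrotransposon-derived neighbour Peg10 had none. Nnat, a small membrane protein of neuroendocrine cells, had 3, 0 and 1 counts in J110 and 0, 2 and 0 in SSM3. These genes were not detectable at this depth, which is not the same as absent. Genes around these loci were counted, and those given here were named after their values were seen. Near Dlk1-Meg3, Wdr25 did not pass the test (log2 fold change 0.22, SE 0.34, edgeR adjusted p = 0.585) and Ppp2r5c was lower in SSM3 (-0.67, SE 0.08, adjusted p = 5.64e-07).

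Both flanking genes of Peg3 were higher in SSM3. Zfp667 had 2, 4 and 6 counts in J110 and 54, 51 and 66 in SSM3 (log2 fold change 3.87, SE 0.33, edgeR adjusted p = 1.53e-08), and Zfp954 was at 1.52 (SE 0.22, adjusted p = 7.23e-06). The flanking genes of the other 3 loci moved in opposite directions. Near Sgce-Peg10, Casd1 was at 1.46 (SE 0.17, adjusted p = 8.34e-07) and Pon3 at -2.54 (SE 0.27, adjusted p = 2.27e-07). On the sides of Grb10, Fignl1, 121546 bases away, was at -1.02 (SE 0.17, adjusted p = 4.53e-05). Sec61g, as far as 4461847 bases away, was at 1.19 (SE 0.26, adjusted p = 0.000498). Near Nnat, Src was at -0.85 (SE 0.11, adjusted p = 1.83e-06) and Ctnnbl1 at 1.20 (SE 0.10, adjusted p = 6.04e-09). Of the further imprinted genes close by, Cobl beside Grb10 was higher in SSM3, at 15, 17 and 19 counts against 140, 145 and 162 (3.20, SE 0.18, adjusted p = 6.93e-11). Blcap, whose span overlaps Nnat on the opposite strand, was counted at 290 to 363 in every library and did not pass the test (-0.01, SE 0.09, adjusted p = 0.944).

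Over all loci, 31 different genes were the nearest tested protein-coding neighbours outside the lists of imprinted genes. Of these, 26 were called, 14 higher and 12 lower in SSM3, or 83.9% beside 77.9% of all genes tested, and 25 with scaling to library size only, where Id1 was lost. Their median log2 fold change was 0.22 and their median absolute log2 fold change was 0.85, beside 0.84 over all genes.

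A further list held 47 imprinted genes outside the main one. Of the 22 tested, 9 were higher and 9 lower in SSM3 and 4 did not pass (81.8% called), with a median log2 fold change of 0.05. Dcn, the gene of the matrix proteoglycan decorin, had 0, 1 and 12 counts in J110 and 6643, 6698 and 6712 in SSM3. J110 replicate 3 held most of the J110 counts, and the log2 fold change moved from 10.63 (SE 0.24, edgeR adjusted p = 1.10e-15) to 13.48 without it and to 10.02 without J110 replicate 1. Ppp1r9a, a phosphatase scaffold of the Sgce-Peg10 cluster, had 0, 1 and 1 counts against 128, 156 and 139 (7.55, SE 0.35, adjusted p = 6.65e-12), although Sgce and Peg10 themselves were at the floor.

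The Kcnq1 domain extends to Tnfrsf22 and Tnfrsf23, decoy receptors for the death ligand TRAIL, and both were lower in SSM3. Tnfrsf22 had 87, 73 and 114 counts in J110 and 1, 1 and 0 in SSM3 (log2 fold change -6.78, SE 0.47, edgeR adjusted p = 1.12e-09). Tnfrsf23 had 318, 301 and 291 counts against 11, 25 and 11 (-4.18, SE 0.20, adjusted p = 9.24e-12). The tetraspanin gene Cd81, at the other end of the domain, had 1824, 1727 and 1657 counts against 517, 545 and 576. The domain did not move as one. Tssc4, beside Cd81, was higher in SSM3, at 191, 201 and 183 counts in J110 and 392, 418 and 475 in SSM3 (1.24, SE 0.09, adjusted p = 1.94e-09), and Osbpl5, an oxysterol-binding protein, did not pass the test (0.29, SE 0.13, adjusted p = 0.0585). Both were named after their values were seen, and Osbpl5 passed in some other settings, with scaling to library size only and with limma-voom among them. Ago2, an Argonaute protein, did not pass the test (0.08, SE 0.08, adjusted p = 0.405), though it did with scaling to library size only.

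The genes that set or keep imprints were taken as a list of 28, of which 23 were tested. In SSM3, 4 were higher, 11 were lower and 8 did not pass (65.2% called, beside 77.9% of all genes), with a median log2 fold change of -0.36. With scaling to library size only, which moved the median of all genes to 0.16, the split was 7 higher and 9 lower. Of the DNA methyltransferases, Dnmt3b, which writes new methylation, was higher in SSM3, at 5, 7 and 5 counts in J110 and 23, 30 and 28 in SSM3 (2.31, SE 0.32, edgeR adjusted p = 6.55e-06). The maintenance enzyme Dnmt1 did not pass the test (0.09, SE 0.09, adjusted p = 0.384), but did with scaling to library size only (0.27, adjusted p = 0.0152). Dnmt3l, Ctcfl and Dppa3 had no count.

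The zinc finger proteins that guard imprints and their partners moved both ways. Zfp57, named after its values were seen and too low for the filter, had 5, 5 and 13 counts in J110 and none in SSM3. Zfp445, a zinc finger protein with a like role, was lower in SSM3 (log2 fold change -0.95, SE 0.13, edgeR adjusted p = 3.29e-06). Their common cofactor Trim28 was higher (0.84, SE 0.08, adjusted p = 3.37e-08). Arid4a, a chromatin protein linked to the Snrpn imprint, was lower (-1.50, SE 0.15, adjusted p = 8.98e-08), as were the chromatin proteins Smchd1 (-0.92, SE 0.13, adjusted p = 7.19e-06) and Atrx (-0.62, SE 0.09, adjusted p = 1.26e-05). The histone methyltransferase genes Ehmt1 and Ezh2 were at 0.91 (SE 0.08, adjusted p = 2.84e-08) and -0.66 (SE 0.09, adjusted p = 7.90e-06).

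**Figure D4:**
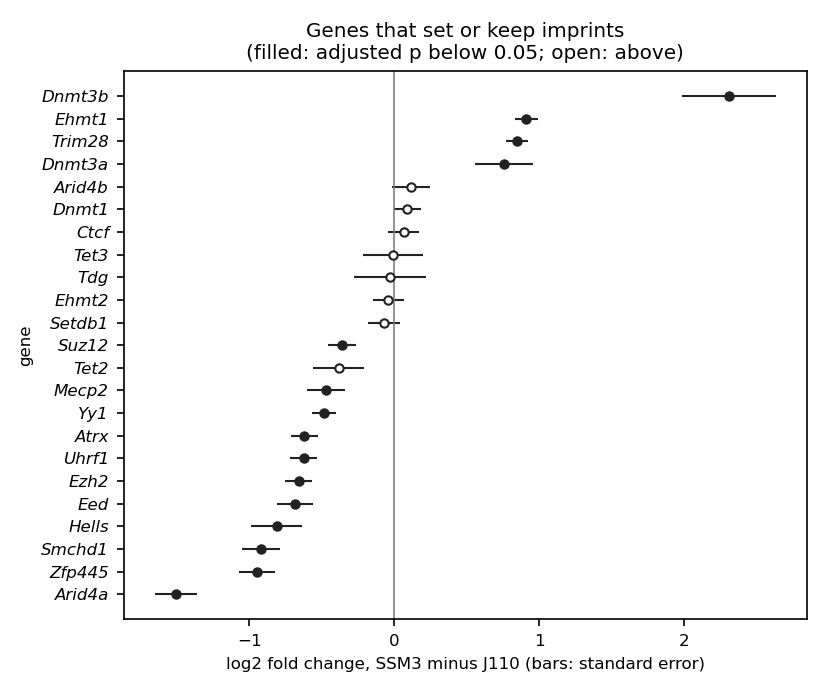
Log2 fold change (SSM3 minus J110, bars are standard errors) of the 23 tested genes that set or keep imprints, filled where edgeR's adjusted p was below 0.05. Values run from -1.50 for Arid4a to 2.31 for Dnmt3b, with 4 filled points above 0 and 11 below.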

How the data were processed

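The 6 libraries (3 of J110, 3 of SSM3) were grouped by the cell line given in the labels. The authors deposited raw counts per gene: per the labels, reads were trimmed with cutadapt 2.1, aligned to mm10 with HISAT2 2.0.4 and counted with featureCounts (Subread 2.0.0). The strand setting and the treatment of reads over several genes were not given in the sources used here. Of 52636 identifiers, 52489 matched GENCODE M21.

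Genes were kept by filterByExpr (minimum count 10), scaled by TMM and tested by edgeR 4.0.16 (quasi-likelihood, Benjamini-Hochberg over 12284 genes, threshold 0.05) in R 4.3.3, after a check on simulated counts. Standard errors were the log2 fold change over the square root of F. CPM used TMM-scaled library sizes. Ratios of summed counts carry exact conditional 95% intervals. The common biological coefficient of variation was 8.30%. The alternatives, with DESeq2 1.42.0 and limma 3.58.1 among them, are given in the closing section.

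Members and lists were chosen with earlier results of these data known. All members were named. Of each other list, the 5 tested genes with the largest absolute change and the 3 with the highest mean were named, with neighbours and some genes sharing exons. Flanking genes were the nearest tested protein-coding genes on each side of a cluster's listed genes, leaving out genes on either list of imprinted genes. The rRNA locus took 15.1 to 17.2% of J110 counts and 0.779 to 1.27% of SSM3 counts. Some genes are not reported here.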

Additional observations from a re-analysis of the deposited data

How the results depend on the processing

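Of the 17 tested imprinted genes, the 16 called in edgeR kept their direction and their side of the threshold in every alternative that tested them, and 16 to 17 imprinted genes, of 17 or 18 tested, were called when each library was left out in turn, beside 9275 to 9572 of the 12454 to 12564 genes tested in all. The count of called genes fell to 7 when at least 10 counts were required in every library, to 5 when genes sharing an exon with another gene were left out, and to 2 when genes overlapping the span of another gene were left out. Those alternatives tested 7, 6 and 3 listed genes. Over all genes, the first called 7288 of 9686, and the other 2 left the 9566 of 12284 as they were. The fitted log2 fold change of Airn was -6.25 and ranged from -8.16 to -5.57 over all alternatives (-8.16 to -5.76 with each library left out in turn). That of Snrpn was 9.80 and ranged from 9.15 to 11.68 (9.32 to 11.64 with each library left out). Airn was at -8.16 without SSM3 replicate 2 and Snrpn at 11.64 without J110 replicate 3, where the line with lower counts had none left. With the replicate number as a block, 16 imprinted genes and 9481 of all genes were called. Same-numbered libraries correlated at 0.0118 to 0.0268, and each library correlated best with its own number. These correlations are weak, and with 3 libraries per line they cannot settle whether the numbers pair the libraries. DESeq2 called 8948 of all genes. Depth limits what can be said of the genes at the floor and of H19, which was too low for the filter.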
